A study of Danio rerio with 4 samples.

Results

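Enterocyte brush border genes were examined by RNA-seq in whole zebrafish larvae that lack the NOD-like receptor *nlrc3l*. The genes are *slc15a1b*, *slc5a1*, *cubn*, *anpepa*, *anpepb*, *dpp4*, *vil1* and *cdx1b*. They were chosen by symbol from the authors' table of all genes, and all 8 of them had a row among its 19143 genes. The larvae were 4 days post fertilization. The mutants were homozygous for the st73 allele of *nlrc3l* and had been sorted for lack of microglia, which the vital dye neutral red stains. The siblings were a mixture of heterozygotes and wild types, sorted for normal microglia. Each genotype had 2 pools of whole larvae, 10 in the smaller and 12 in the larger, and no treatment was compared. In the paper's staining method, live larvae are bathed in neutral red together with PTU, which inhibits pigmentation.

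The brush border is the carpet of microvilli on the luminal face of absorptive gut cells. Bundles of actin filaments, cross-linked by villin, hold each microvillus upright. Its membrane carries peptidases that finish the digestion of protein, and transporters that take the resulting sugars, amino acids and short peptides into the cell. In zebrafish larvae, lysosome-rich enterocytes of the mid gut also take up whole protein by endocytosis, for which cubilin is a receptor. Most of these proteins are used by kidney tubules as well as by the gut.

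The authors' table gives 1 row per gene, and values per library were not analysed here. Each gene has a baseMean, the mean over the 4 libraries of counts that the authors scaled for library size, and DESeq2's log2 fold change of mutants over siblings with its standard error (SE). From these an implied mean was computed for each genotype. The p-value of each gene was recomputed from the log2 fold change and its standard error and adjusted by Benjamini-Hochberg (BH) over all 19143 genes. Across all genes the lowest baseMean was 9.18 and the median 126, and the 8 brush border genes ran from 92.9 to 2306. For the mutated gene itself the log2 fold change was -0.68, and its adjusted p of 0.0719 missed the limit of 0.05. Together the 8 genes held 0.0570% of all normalized counts, and *vil1* and *anpepb* made up 78.2% of that share.

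Transcripts of 3 of the 8 brush border genes fell in *nlrc3l* mutants, and none rose. The genes that fell encode villin (*vil1*), an aminopeptidase N (*anpepb*) and the peptide transporter PepT1 (*slc15a1b*). Each was at 72.8 to 77.0% of its sibling level. The other 5 genes did not pass the test, although their log2 fold changes were also below 0, from -0.25 to -0.08. Among all genes tested, 2.02% were lower at an adjusted p up to 0.05, and 2.95% were higher. By baseMean *vil1*, *anpepb* and *slc15a1b* stood at percentiles 97.3, 95.9 and 61.8 of all genes. The standard errors of *vil1* and *anpepb* were 0.072 and 0.073, against a median of 0.14. The shares over all genes are thus not matched for level or precision. At an unadjusted p up to 0.05, 4 of the 8 were lower, *dpp4* being the fourth, against 5.86% of all genes. A log2 fold change below 0 was found in 49.9% of all genes. The median log2 fold change of the 8 genes was -0.24, against 0.00030 for all genes. None of the 8 reached the fold change of 1.5 that the study required beside the adjusted p, which 0.59% of all genes did downward and 1.28% upward. The 4 libraries underlie every one of these values, so the 8 genes are not 8 independent observations.

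**Figure D1:**
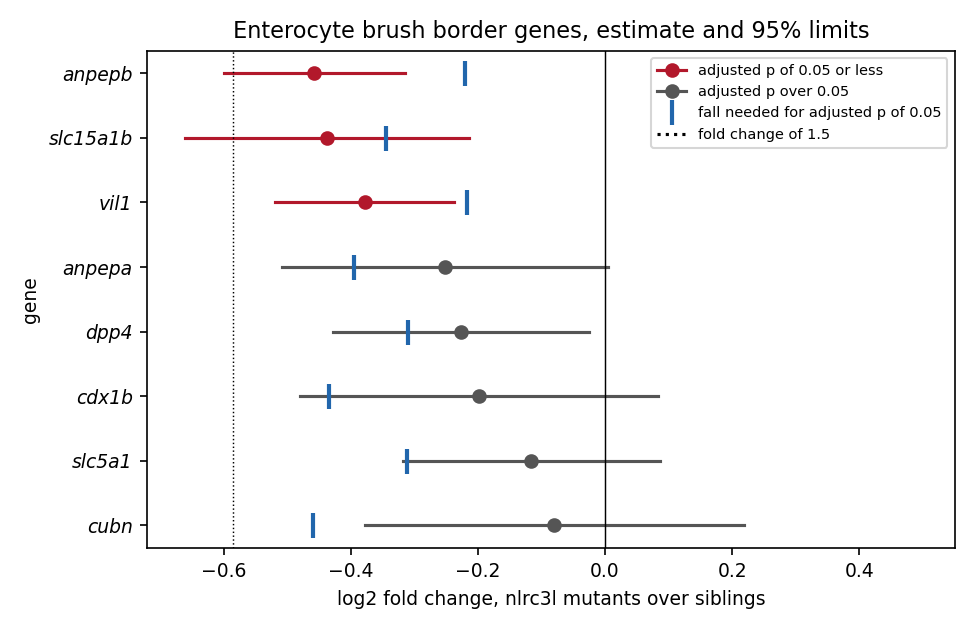
Log2 fold change of *nlrc3l* mutants over siblings for each of the 8 brush border genes (points) with 95% limits (lines). Red marks an adjusted p of 0.05 or less, the blue tick is the fall that each gene's standard error would have needed to reach it, and the dotted line is a 1.5-fold fall. The points of *anpepb*, *slc15a1b* and *vil1* lie beyond their ticks, while all 8 points lie below 0 and short of the dotted line.

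Villin, the actin-bundling protein of the microvillus core, had the highest baseMean of the 8 genes, 2306. For *vil1* (ENSDARG00000040466) the implied mean was 2606 normalized counts in siblings and 2006 in mutants. Its log2 fold change was -0.38 (SE 0.072, BH-adjusted p = 1.47e-05 from DESeq2's estimates), or 77.0% of the sibling level, with 95% limits of 69.8 to 84.9%. Only 72 genes of the table, *vil1* included, were lower with a p as small or smaller. By log2 fold change alone it stood at percentile 4.80 of all genes from the bottom. Its related gene *vill*, a villin-like gene, had a log2 fold change of 0.18 (adjusted p = 0.682), with 95% limits of -0.09 to 0.44. The limits of *vil1*, -0.52 to -0.24, did not overlap these. The difference between the genes was not tested.

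Of the 3 peptidases among the 8 genes 1 fell. Aminopeptidase N, which removes residues from the amino end of peptides, had the largest fall of the 8 genes through *anpepb* (ENSDARG00000103878). Its implied mean was 1830 normalized counts in siblings and 1333 in mutants. The log2 fold change was -0.46 (SE 0.073, BH-adjusted p = 5.91e-08 from DESeq2's estimates), or 72.8% of the sibling level, with 95% limits of 66.0 to 80.4%. It was the most certain of the 8, with 33 genes, itself included, lower at a p as small or smaller. The gene listed as *anpepa* (ENSDARG00000041083) averaged an implied 153 normalized counts in siblings and 128 in mutants, and its log2 fold change was -0.25 (SE 0.13, adjusted p = 0.394). Its 95% limits of -0.51 to 0.01 take in the estimate for *anpepb*, so the data do not separate these peptidases. Dipeptidyl peptidase 4, which removes dipeptides that end in proline or alanine, was likewise undecided. For *dpp4* (ENSDARG00000079420) the implied means were 275 and 235 normalized counts in siblings and mutants. The log2 fold change was -0.23 with limits of -0.43 to -0.03, which leave out 0. After adjustment over all genes the p of *dpp4* was 0.264, and it is not counted as changed.

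The name *anpepa* is that of the authors' table. In the gene name table used here the same identifier is *anpeplb*, and 5 genes carry a name of the aminopeptidase N family. All 5 have a row in the authors' table, 3 of them outside the 8 genes, and these 3 were looked up after the values of the others had been seen. Of these 3 genes 1 rose. The gene now named *anpepla*, listed as *si:ch211-276a23.5* (ENSDARG00000089706), rose by 0.81 on the log2 scale (SE 0.17, adjusted p = 1.38e-04), to 175% of the sibling level. Its 95% limits of 0.48 to 1.15 lay wholly above those of *anpepb*, -0.60 to -0.32. The 2 remaining genes, *ANPEP* (ENSDARG00000097285) and *si:ch211-106j24.1* (ENSDARG00000036809), had log2 fold changes of -0.10 and -0.05 and adjusted p of 0.934 and 0.956. The baseMean of *anpepla*, 83.3, was far below the 1581 of *anpepb*. Reads from similar copies could have been assigned to either, which these files cannot show.

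The transporters fell in 1 of 2 cases. PepT1 carries short peptides from the gut lumen into the cell together with protons. For *slc15a1b* (ENSDARG00000044528) the implied mean was 220 normalized counts in siblings and 162 in mutants. Its log2 fold change was -0.44 (SE 0.11, BH-adjusted p = 0.00458 from DESeq2's estimates), or 73.9% of the sibling level, with limits of 63.3 to 86.2%. Its paralogue *slc15a1a*, a member of the wider transporter list below, fell too, by 0.89 on the log2 scale (SE 0.17, adjusted p = 1.14e-05). The limits of the paralogues, -0.66 to -0.21 and -1.22 to -0.56, overlapped. The sodium-glucose cotransporter SGLT1, through which glucose enters the enterocyte, did not pass the test. For *slc5a1* (ENSDARG00000013871) the implied means were 295 and 272 normalized counts in siblings and mutants. The log2 fold change of -0.12 had limits of -0.32 to 0.09 (adjusted p = 0.747). These limits leave out the estimates of *vil1*, *slc15a1b* and *anpepb* but overlap the limits of all 3. The differences were not tested. The facilitative carrier *slc2a2*, by which glucose leaves the enterocyte and which the liver also uses, fell by 0.47 on the log2 scale (SE 0.13, adjusted p = 0.00916, or 0.0699 with the empirical null described below).

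Cubilin and the transcription factor Cdx1b were the least precise of the 8 genes. Cubilin is a large receptor on the cell surface that binds many proteins and is internalized with its partner amnionless. For *cubn* (ENSDARG00000087013) the implied means were 95.5 and 90.4 normalized counts in siblings and mutants. The log2 fold change of -0.08 (adjusted p = 0.920) was the smallest of the 8, with limits of -0.38 to 0.22. Partners of cubilin in uptake by lysosome-rich enterocytes gave similar estimates. The log2 fold changes were -0.17 for *amn* (amnionless), -0.08 for the endocytic adaptor *dab2* and -0.12 for the related receptor *lrp2b*. The limits were wide for *amn*, -0.58 to 0.24, and for *lrp2b*, -0.82 to 0.58, which had a baseMean of 16.8. For *dab2* they were -0.28 to 0.11. None of these 3 passed the test. The homeobox gene *cdx1b* acts in the nucleus, not at the brush border, and is known in zebrafish for its part in forming the intestinal epithelium. For *cdx1b* (ENSDARG00000116139) the implied means were 128 and 112 normalized counts in siblings and mutants, and the log2 fold change of -0.20 had limits of -0.48 to 0.08 (adjusted p = 0.646). Its paralogue *cdx1a* had a log2 fold change of -0.02, with limits of -0.29 to 0.25.

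How small an estimated fall could pass the test differed between the genes. An adjusted p of 0.05 required a log2 fold change of 3.03 standard errors in these data. For *vil1* and *anpepb* that was a fall to 86.0% and 85.9% of the sibling level. For *slc5a1* and *dpp4* it was a fall to 80.6%, and for *anpepa*, *cdx1b* and *cubn* to 76.0%, 74.0% and 72.7%. An estimated fall to 77.0%, as found for *vil1*, would thus not have passed for *anpepa*, *cdx1b* or *cubn*. A true change of that size could still have given an estimate past the limit in these 3 genes. How often it would have done so was not tested. The limits of *anpepa*, *dpp4* and *cdx1b* take in the estimate for *vil1*, while those of *cubn* end at -0.377, against -0.378 for *vil1*.

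Summed over the 8 genes, the implied means came to 5602 normalized counts in siblings and 4338 in mutants, so that mutants were at 77.4% of siblings. Summed over all genes tested, mutants were at 105% of siblings. The sum over the 8 genes is mostly *vil1* and *anpepb*. Without them, a choice made after seeing the data, the other 6 genes were at 85.8%, and their median log2 fold change was -0.21. In bulk RNA from whole larvae, fewer enterocytes and less RNA per enterocyte cannot be told apart.

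**Figure D2:**
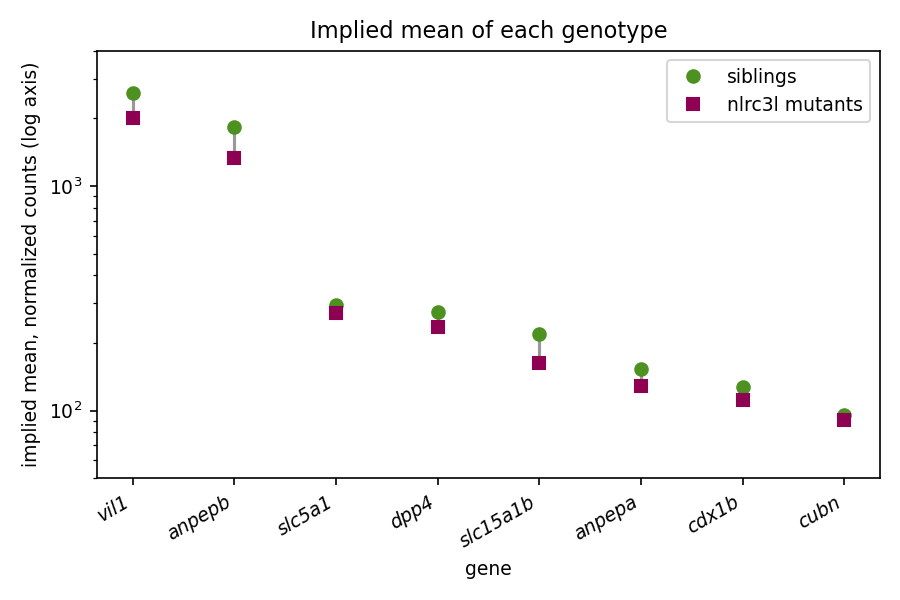
Implied mean of each genotype in normalized counts (log axis) for the 8 brush border genes, siblings as circles and *nlrc3l* mutants as squares. Each point is computed from the authors' baseMean and log2 fold change and stands for 2 pools, so no spread between pools can be drawn. The mutant lies below the sibling for every gene, from 2006 against 2606 for *vil1* to 90.4 against 95.5 for *cubn*.

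Other genes of the brush border were followed with 3 lists, for its skeleton with cell adhesion, its enzymes and its transporters. The lists are not limited to proteins of the brush border itself. Of 21 genes for the microvillus skeleton and cell adhesion 2 fell, or 9.52% against 2.02% of all genes, and none rose. The median was -0.11 on the log2 scale. The 2 that fell were the scaffold gene *pdzk1*, at -0.31 (adjusted p = 0.0175), and *cdh17*, at -0.26 (adjusted p = 0.00333). The cadherin gene *cdh17* is listed for cell adhesion, not for the microvillus skeleton. The extremes of the list were *cdhr5b*, a microvillus cadherin gene, at -0.32, and *baiap2l2a* at 0.23, neither of which passed the test. With an empirical null, which divides each statistic by its robust SD of 1.19 over all genes, only the adhesion gene *cdh17* was left. By estimate alone, the fall of *vil1* was larger than that of any of these 21 genes. The limits of *cdhr5b*, -0.72 to 0.07, and of *pdzk1*, -0.49 to -0.13, take in the estimate for *vil1*, and the differences were not tested.

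Of 19 brush border hydrolases 6 fell, or 31.6% against 2.02% of all genes, and 1 rose, with a median log2 fold change of -0.26. Of these falls 4 were past a fold change of 1.5, which none of the 8 genes reached. The intestinal alkaline phosphatase gene *alpi.2* was at -1.03 (SE 0.17, adjusted p = 3.91e-07), or 48.8% of the sibling level, whereas *alpi.1* was at -0.04 with limits of -0.30 to 0.23. Enzymes that split dietary sphingolipids fell as well, with *enpp7.1* at -1.60 (adjusted p = 2.36e-05) and the neutral ceramidase gene *asah2* at -0.81 (adjusted p = 3.67e-05). The carboxypeptidase gene *cpo* was at -0.88 (adjusted p = 0.00115). The peptidase gene *ace*, which other tissues also use, was at -0.48, close to *anpepb*. The gene that rose was *ggt1a*, a gamma-glutamyltransferase gene with a baseMean of 18.2, at 1.15 (adjusted p = 0.0401, or 0.187 with the empirical null).

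Of 24 genes listed as apical transporters 7 fell, or 29.2% against 2.02% of all genes, and none rose. The median log2 fold change was -0.29. Those that fell included *slc15a1a*, the phosphate transporter gene *slc34a2a*, *slc2a2* and the neutral amino acid transporter genes *slc6a19a.1* and *slc6a19a.2*. The fatty acid receptor gene *cd36* and the chloride exchanger gene *slc26a3.2* were the rest. Since glucose leaves the enterocyte by *slc2a2*, the fall of that gene is not read as one of the brush border. Only *slc15a1a* and *slc34a2a*, at -0.89 and -0.63, passed a fold change of 1.5. The other 5 lay between -0.47 for *slc2a2* and -0.29, and *slc15a1b* was at -0.44. Without *slc2a2* the lowest of them was *slc6a19a.1*, at -0.43. With the empirical null 4 of the 7 were left, without *slc2a2*, *slc6a19a.1* and *slc26a3.2*, and with Holm adjustment 2, *slc15a1a* and *slc34a2a*. The highest value of the list was 0.31 for the thiamine transporter gene *slc19a3a* (adjusted p = 0.665).

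Lipid handling genes of the enterocyte, several of which the liver also expresses, included falls past those of the 8 genes by estimate. Of 26 genes 10 fell, or 38.5% against 2.02% of all genes, and none rose. Their median was -0.22, against 3 of the 8 brush border genes that fell and a median of -0.24. The cellular retinol-binding protein genes *rbp2a* and *rbp2b* were at -0.72 (SE 0.071, adjusted p = 4.27e-21) and -0.83 (SE 0.094, adjusted p = 4.22e-16). The intestinal fatty acid binding protein gene *fabp2* was at -0.65 (adjusted p = 2.59e-10), or 63.7% of the sibling level, and the monoacylglycerol acyltransferase gene *mogat2* at -0.63 (adjusted p = 1.74e-04). The lowest was the lipid droplet gene *plin2*, at -1.64 with a baseMean of 32.5, and the highest was *apobb.2*, at 0.38 (adjusted p = 0.242). The limits of *rbp2a*, -0.86 to -0.58, did not overlap those of *vil1*, at -0.52 to -0.24. They did overlap those of *anpepb*, -0.60 to -0.32, and of *slc15a1b*, -0.66 to -0.21. The differences were not tested.

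Among genes for endocytosis by lysosome-rich enterocytes and for intestinal regulators no fall passed the test. Over all genes only 2.02% were lower, so a count of 0 in lists this short is near that share. Of 12 endocytosis genes none fell and 1 rose by the adjusted test. At an unadjusted p of 0.05 none was lower and 3 were higher, where 1415 of all 19143 genes were higher. The 3 were the protease genes *ctsl.1*, *ctsh* (0.34) and *lgmn* (0.12), whose expression in other cells of the larva cannot be separated here. By estimate alone 8 of the 12 genes were below 0. The cathepsin L gene *ctsl.1*, which macrophages also use, was at 0.47 (adjusted p = 0.00160), and the lowest gene was *ctsbb*, at -0.72 with limits of -1.50 to 0.06. Of 25 transcription factors none passed by DESeq2's estimates, and the median was -0.05. At an unadjusted p of 0.05, 3 were lower and 1 higher, where 5.86% of all genes were lower. In whole larvae these factors do not measure the gut alone, so whether they changed in the intestine was not tested. The extremes were the bile acid receptor gene *nr1h4*, at -0.42 (adjusted p = 0.116), and *cdx4*, at 0.44 (adjusted p = 0.794) with a baseMean of 10.4. The hepatocyte nuclear factor genes *hnf4a* and *hnf4g* had log2 fold changes of -0.26 and -0.37 and did not pass. Thus *cdx1b*, at -0.20, lay inside the range of the other regulators.

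**Figure D3:**
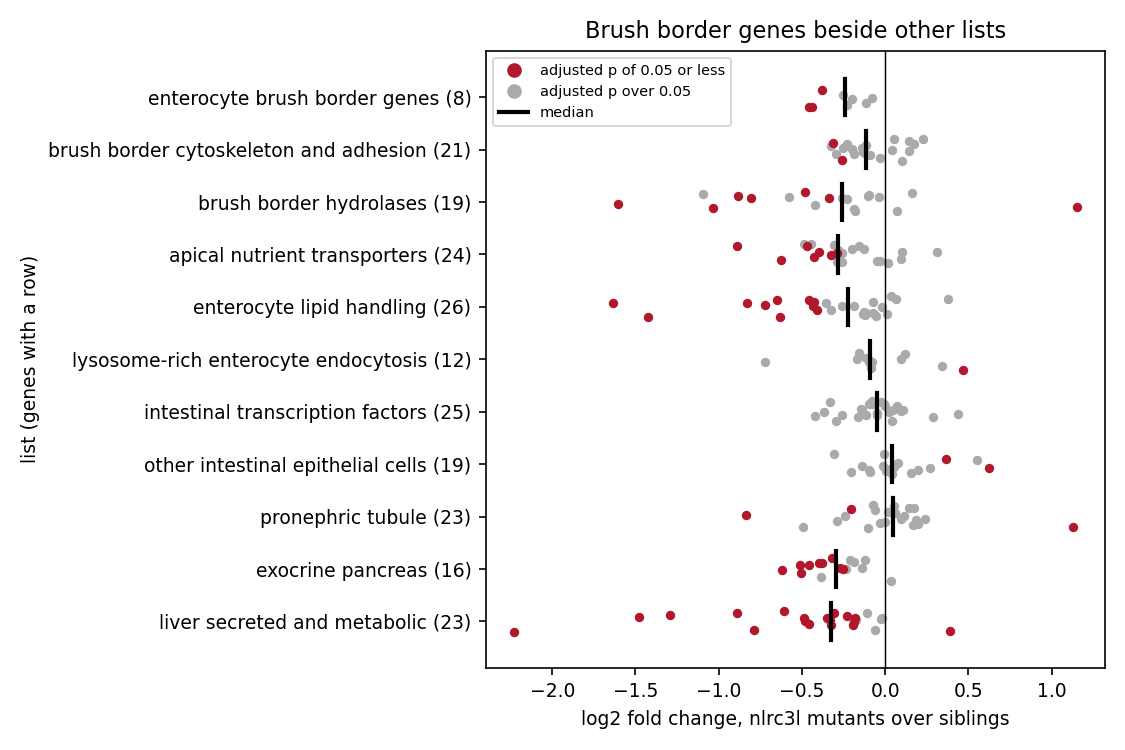
Log2 fold change of every gene with a row in each list (points, red at an adjusted p of 0.05 or less), with the number of rows in brackets and the median as a black bar. The medians of the 8 brush border genes, the hydrolases, the transporters and the lipid genes lie between -0.29 and -0.22. Those of the other intestinal epithelial cells and of the pronephric tubule, 0.04 and 0.05, lie at the other side of 0.

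The kidney tubule is the other main site of brush border proteins, and the median of its list was not below 0. The list covers the tubule as a whole, its distal part included, and not its brush border alone. Its median therefore does not describe the tubule brush border. Of 23 genes of the pronephric tubule 2 fell, or 8.7% against 2.02% of all genes, and 1 rose. The median log2 fold change was 0.05. At an unadjusted p of 0.05, 4 were lower and 2 higher, where 5.86% of all genes were lower. The 4 lower were *slc5a2*, *slc13a3* (-0.50), *atp1a1a.4* and *slc26a1* (-0.24), and the 2 higher were *slc12a3* and *slc20a1b* (0.14). The glucose cotransporter gene *slc5a2* was at -0.84 (adjusted p = 0.0127) and the sodium pump gene *atp1a1a.4* at -0.20 (adjusted p = 0.0350), while the salt transporter gene *slc12a3* of the distal tubule was at 1.13 (adjusted p = 0.0258). None of these 3 passed with the empirical null, with adjusted p of 0.0871, 0.170 and 0.139. How much of each brush border transcript came from the kidney was not tested. Neighbouring digestive organs were lower. Of 16 exocrine pancreas genes 9 fell, or 56.2% against 2.02% of all genes, and none rose. Their median was -0.30, from the elastase gene *ela2l* at -0.62 to *cpa1* at 0.03. The 9 became 5 with the empirical null, without *ela2l*, and 3 with Holm adjustment. Of 23 liver genes 17 fell, or 73.9% against the same 2.02%, and 1 rose, with a median of -0.32. They ran from *ahsg1* at -2.23, with a baseMean of only 10.7, to the ceruloplasmin gene *cp* at 0.39. Thus the fall of *vil1*, *anpepb* and *slc15a1b* stood beside falls in the pancreas and liver lists. The part of those organs in the result was not tested.

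The 8 brush border genes lie on 8 different chromosomes of the GRCz12tu assembly, and none is the neighbour of another. All 8 were placed there by their names, *anpepa* as *anpeplb* and *anpepb* as *anpepb.1*. By spread between libraries the genes that fell overlapped the rest. The standard errors imply a coefficient of variation within a genotype, which was 2.92 to 4.52% for the genes that fell and 1.72 to 3.96% for the other 5. These values come after DESeq2's moderation across genes and are not an observed spread between pools.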

How the data were processed

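RNA-seq had been carried out on 2 pools of *nlrc3l* mutants and 2 of siblings. The authors trimmed reads with Trimmomatic and aligned them with HISAT2. The submitters' processing notes also name featureCounts, Subread 1.5.2, R 3.3.1, DESeq2 and the GRCz10 build, with no version for DESeq2. The labels name a stranded kit, but the strand setting of the counting is not given in the sources used here, so reads of an antisense gene may be included. The deposited baseMean is a signal, the authors' mean of counts scaled by size factors. On the log2 scale are the deposited fold change and its standard error, both taken from the DESeq2 fit of the authors. The deposited p-value and adjusted p-value were used only as a check, and differed from the recomputed ones by at most 3.29e-07. A second deposited table holds the subset past the study's thresholds and was not used. The columns are the authors' comparison itself, since the table has no column per library. The tests planned for values per library were therefore not run, and the one planned for a comparison was used.

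Two-sided normal p-values were adjusted by Benjamini-Hochberg over all 19143 genes, and limits are 95% normal limits. Implied means take the genotypes as 2 libraries against 2, which assumes that DESeq2 did not shrink the fold changes. This assumption was not checked, as neither the version nor the settings of DESeq2 are given in the sources used here. With shrinkage the fold changes and the implied differences would be understated, most of all at low counts. Standard errors were under counting error alone in 13.1% of genes and in 40.7% of those with a baseMean under 50, a pattern whose cause was not tested, but in none of the 8 genes. They were also so for *alpi.2*, *enpp7.1*, *plin2*, *slc5a2* and *ahsg1* among the named genes that passed the test. The planned levels per coding length and motif counts in promoters were not made, as neither lengths nor sequences were used here.

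The 8 genes and the 11 other gene lists were chosen with earlier results of these data known. Genes named are the 8, *nlrc3l*, the extremes of each list and up to 5 genes per list past an adjusted p of 0.05 and a fold change of 1.5. In the liver list only the extremes are named, as that organ serves for comparison. Relatives of the 8 genes and the transporters under a fold change of 1.5 were chosen after their values were seen. So were *pdzk1*, *cdh17*, *ace*, *alpi.1*, *ctsh*, *lgmn*, *hnf4a*, *hnf4g*, *atp1a1a.4*, *slc13a3*, *slc26a1*, *slc20a1b* and *muc5.1*. Alternatives were an empirical null, Student's t distribution, Holm adjustment, centring, a baseMean minimum of 50, a test against a fold change of 1.5, and other thresholds. The steps were run on simulated log2 fold changes with normal noise set by the deposited standard errors. Such a run checks the calculation only, and cannot show whether those standard errors or the normal distribution hold. The software was scipy 1.17.1, numpy 2.4.6, matplotlib 3.10.9 and pandas 2.3.3 under Python 3.11.15.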

Additional observations from a re-analysis of the deposited data

How the results depend on the processing

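Direction was not put to a test, since the alternatives reuse the same log2 fold changes. The count of 3 brush border genes that fell was the same with an empirical null and with an adjusted p of 0.01. With the empirical null *slc15a1b* was near the limit, at an adjusted p of 0.0445. Centring, a baseMean of 50 or more and an adjusted p of 0.1 also left 3, but could hardly lower the count. Centring moved each value by only 0.00030, all 8 genes had a baseMean over 50, and 0.1 is the looser limit. Holm adjustment left 2, without *slc15a1b*. The count was 0 when genes were tested against a fold change of 1.5, as it had to be with every estimate short of 1.5. It was also 0 with Student's t distribution at 2 degrees of freedom, under which 0 of all 19143 genes passed and 348 had an unadjusted p of 0.05 or less. The unadjusted p under that distribution was 0.0243 for *anpepb*, 0.0343 for *vil1* and 0.0615 for *slc15a1b*. The number of brush border genes past a fold minimum, 0 at 1.5, was 3 at a fold change of 1.2 and 0 at 2. In place of the median log2 fold change of the 8 genes, the mean was -0.27 and the mean weighted by precision -0.32. The median ran from -0.25 to -0.23 when each gene was left out in turn. These are the middle values of the 8, so that run could give no others. Other lists lost more. The empirical null took the adjusted p of *ggt1a*, *slc5a2*, *slc12a3*, *ela2l*, *pdzk1*, *slc2a2*, *slc6a19a.1*, *slc26a3.2*, *atp1a1a.4* and *muc5.1* over 0.05. Under it the transporters that fell went from 7 to 4 and the exocrine pancreas genes from 9 to 5. The skeleton and adhesion genes went from 2 to 1 and the tubule genes from 2 to 0. With Holm adjustment the same counts were 2, 3, 0 and 0, and the lipid genes went from 10 to 6 and the liver genes from 17 to 11.

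No paired analysis was possible because the table holds no values per library, and no pool was left out for the same reason. The values without any 1 of the 4 pools are not known here.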

Other observations

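A list of markers of other intestinal epithelial cells was not lower in *nlrc3l* mutants. In whole larvae these genes do not measure gut cells alone. The gene with the highest baseMean of the list, *neurod1* at 1277, is also active in brain neurons, where the paper used its regulatory sequence. Whether goblet or hormone cells of the gut changed was not tested. Of 19 genes of goblet, best4 and hormone cells 2 rose and none fell, where 2.95% of all genes rose and 2.02% fell. At an unadjusted p of 0.05, 1 was lower, and the median log2 fold change was 0.04. The proglucagon gene *gcga*, which endocrine cells of the pancreas also express, was at 0.62 (adjusted p = 1.89e-08). The mucin gene *muc5.1*, which other mucous surfaces also express, was at 0.36 (adjusted p = 0.0366, or 0.176 with the empirical null). The lowest was the opioid precursor gene *penka*, at -0.31 (adjusted p = 0.359).

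Most genes of a list of neutrophil markers, measured in the same larvae, moved the other way from the brush border genes that fell. Of 9 rows 7 rose and 1 fell, with a median of 1.11, where 2.95% of all genes rose and 2.02% fell. The highest was *mpx*, at 2.18, followed among the genes of the naming rule by *mmp13a* (ENSDARG00000012395) at 1.79, *lyz* at 1.64, *mmp9* at 1.52 and *npsn* at 1.11. A second row named *mmp13a* (ENSDARG00000114451) was at 1.06. The gene that fell was *cpa5*, at -0.38. It is also on the exocrine pancreas list, so its fall is not read here as a change in neutrophils. The paper calls *mpx* a neutrophil marker, and it places *mmp9* and *mmp13a* among enzymes raised in inflammation.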
